A study of Homo sapiens with 9 samples.

Results

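RNA of K562 cells transfected with siRNA against DHX34 was compared with RNA of K562 cells transfected with a non-targeting siRNA (SCR), with 3 poly(A) libraries in each group, chosen by the DHX34 and SCR names in their titles. These 6 of the 9 samples in the study were read across all expressed genes: 17004 genes had enough counts to be tested, of which 942 (5.54%) rose and 826 (4.86%) fell in the knockdown at an edgeR quasi-likelihood adjusted p of at most 0.005. K562 is an established human line from a chronic myelogenous leukaemia, spelled K652 in some of the labels, and the SCR libraries carry the treatment label WT. Cells were grown in RPMI with serum and transfected with a pool of siRNAs. By the paper's methods they were transfected again with those siRNAs on day 3, and harvested 4 days after the first transfection. The 3 remaining libraries, with siRNA against UPF1, are given side by side with the DHX34 libraries, and the groups share the SCR controls. One siRNA pool was used for DHX34 in 1 line, without a rescue, so that loss of DHX34 and other effects of that pool cannot be told apart. In bulk RNA, fewer cells of a kind and less RNA per cell cannot be told apart either.

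DHX34 is an RNA helicase of the DEAH-box family, enzymes that use ATP to remodel RNA and RNA-protein complexes, several of which drive the late steps of splicing. It is known as a factor of NMD, nonsense-mediated decay, which removes RNAs whose stop codon comes too early, and in which UPF1 is the core helicase and SMG1 the kinase that phosphorylates UPF1. K562 cells have features of red-cell and megakaryocyte precursors and can be driven towards either, and their normal relatives in the bone marrow choose between red-cell, platelet and white-cell fates under a small set of transcription factors.

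The 6 libraries held 73478797 to 100737568 salmon expected counts (estimated read numbers per transcript), summed here per gene and given as CPM, counts scaled to the library total. The erythroid character of the line was plain: 15 of 15 erythroid markers, among them the embryonic and fetal globins, reached at least 1 TPM (an abundance scaled for transcript length and library total) in both groups. Of 12 granulocyte or monocyte markers 1 reached 1 TPM in SCR and 2 in the knockdown, with summed levels of 14.8 to 15.3 TPM against 31.5 to 35.0, nearly all of it lysozyme, and MPO, CSF1R, FCN1 and S100A8 stayed below 0.1 TPM in all 6 libraries. Of 11 megakaryocyte markers 3 reached 1 TPM in each group, with summed levels of 129 to 139 TPM in SCR and 109 to 119 in the knockdown, most of it GP1BB (means of 131 and 103 TPM), and GP9 and SELP were listed at 0 throughout. Single markers of other cells were also present: the epithelial EPCAM had means of 72.3 and 74.2 TPM and the lymphoid CD3D of 22.9 and 28.2 TPM, while the epithelial KRT5 and the lymphoid MS4A1 were listed at 0. One library stood apart from its group: DHX34 replicate 3 differed from the other knockdown libraries by a chi-square per degree of freedom of 22.7 and 25.1, against 6.35 between replicates 1 and 2 and 8.89 to 10.4 among SCR libraries. For some gene lists, counts without single libraries are given beside the result.

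DHX34 itself (ENSG00000134815, GRCh38 chr19:47349315-47382704) was at 69.3, 72.1 and 70.6 CPM in the SCR libraries and at 30.3, 30.3 and 35.2 CPM in the knockdown libraries. The groups did not overlap, with a difference of -1.23 on the log2 scale and an SE of 0.05 (edgeR adjusted p 3.33e-07). The transcripts of the gene did not fall alike. The full-length coding transcript DHX34-201 went from 15.4 ± 0.52 to 6.50 ± 0.82 TPM (SD, n = 3), whereas DHX34-202, annotated as an NMD substrate, was at 2.79 ± 0.55 TPM in SCR and 2.94 ± 0.16 in the knockdown. DHX34-202 thus made up 16.2%, 16.5% and 11.9% of the gene's TPM in SCR and 30.6%, 33.1% and 25.4% in the knockdown. The groups did not overlap, but neither share change passed the test over all transcripts (limma adjusted p 0.10 for DHX34-201 and 0.14 for DHX34-202).

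**Figure D1:**
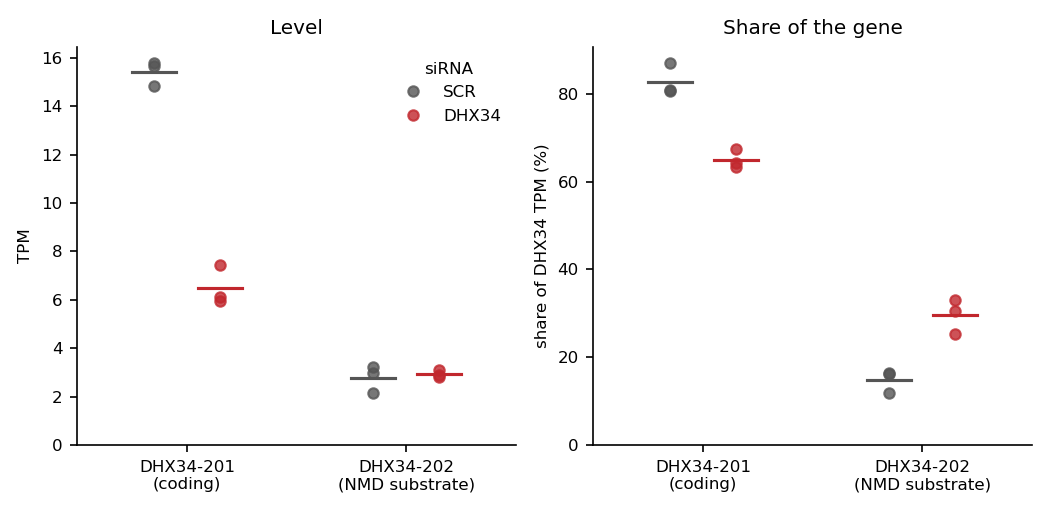
Level in TPM (left) and share of the gene's TPM in percent (right) of the coding transcript DHX34-201 and the NMD-substrate transcript DHX34-202, with 1 point per library and a bar at the mean of 3. The coding transcript fell from 15.4 to 6.50 TPM, while the other stayed near 3 TPM and so took a larger share.

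Changes were mostly modest in size: 108 of the genes that rose and 17 of those that fell changed more than 2-fold. Nearly all called genes were protein coding (922 rose and 767 fell of 13160 tested), and of 2922 lncRNA genes 17 rose and 39 fell. The balance of rises and falls depended on the scale. On log2 TPM, where the median of all genes moved up by 0.13 on the log2 scale in place of 0.02, limma called 786 rises and 93 falls. With a smooth trend of the counts on gene length taken out, 750 genes rose and 872 fell, and 1248 of the 1768 calls were kept. The total of 1768 varied with the library left out: it was 909 and 1082 without DHX34 replicates 1 and 2, 811, 1160 and 781 without SCR replicates 1, 2 and 3, and 1785 without DHX34 replicate 3.

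The rule for naming genes (called, at least 5 CPM on average, groups apart) gave 15 rises, of which 14 are named here. THBS1, which encodes the platelet and matrix protein thrombospondin-1, was at 0.97, 1.11 and 1.46 CPM in SCR and at 11.9, 12.2 and 13.7 CPM in the knockdown. On the log2 scale it rose by 3.31 with an SE of 0.14 (edgeR adjusted p 3.33e-07), and in the UPF1 knockdown it stood at 1.11 ± 0.08 CPM (SD, n = 3). The rise of THBS1 was smaller on log2 TPM (1.89) and was still called there. ITGA2B, the alpha chain of the platelet fibrinogen receptor, was at 3.56 to 4.04 CPM across SCR libraries and at 14.4 to 15.5 CPM across knockdown libraries. INPP5D, the lipid phosphatase SHIP1 that dampens phosphoinositide signalling in blood cells, rose from 2.39 ± 0.46 to 9.52 ± 0.19 CPM. In each of these 3 genes the knockdown libraries lay above every SCR library, as the rule required, and above every UPF1 library.

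The remaining named rises were ARAP3 (7.99 ± 0.79 to 29.8 ± 1.03 CPM), a regulator of small GTPases downstream of phosphoinositide 3-kinase, and LGALS12, a galectin. CTSS, a lysosomal protease of antigen-presenting cells, rose from 4.83 ± 0.58 to 14.6 ± 0.90 CPM. WAS, the actin regulator missing in Wiskott-Aldrich syndrome, went from 6.42 ± 0.46 to 18.7 ± 1.5 CPM, and CORO1A, an actin-binding protein of leukocytes, from 5.97 ± 0.48 to 17.1 ± 0.33 CPM. APOE, a lipid carrier that macrophages secrete, was the most abundant of them at 44.8 ± 1.70 CPM in SCR and 129 ± 11.7 in the knockdown. LAPTM5 (a lysosomal membrane protein of blood cells), FYB1 (an adapter of T cells and platelets), ADAM8 (a protease of leukocytes) and TRANK1 rose by 1.26 to 1.51 on the log2 scale. ADAM8 was not called on length-scaled counts, and neither ADAM8 nor TRANK1 was called on log2 TPM. SSX2B, a cancer-testis gene, was at 0, 2.52 and 0.70 CPM in SCR and 19.4, 32.4 and 6.36 in the knockdown, but a near-identical copy of it exists, so its level is uncertain, and its call was lost in 4 of the 6 fits with 1 library omitted and with DESeq2. Apart from SSX2B, the named rises were lower in the UPF1 than in the DHX34 knockdown when these libraries were compared directly, by 1.04 to 3.5 on the log2 scale (edgeR adjusted p of at most 1.17e-05). They were picked as the largest rises in these same DHX34 libraries, which favours a lower UPF1 level in advance, so this is a description.

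**Figure D2:**
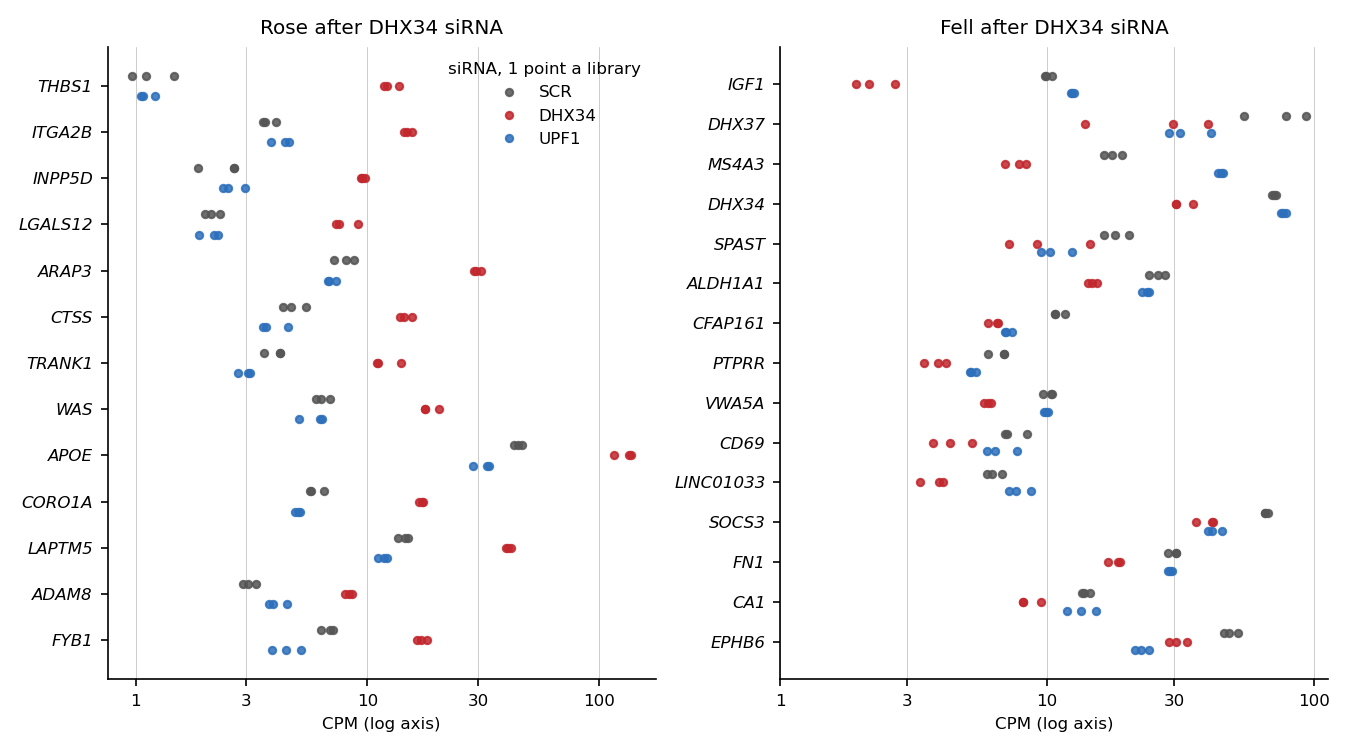
CPM on a log axis of the named genes that rose (left, without SSX2B, which has a library at 0) and fell (right), with 1 point per library for SCR, DHX34 siRNA and UPF1 siRNA. For the rises the red DHX34 points lie apart from grey, as the naming rule required, and from blue. For DHX37, SPAST, SOCS3 and EPHB6 on the right the UPF1 means (33.7, 10.8, 42.3 and 22.6 CPM) lie below those of SCR.

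Leukocyte signalling was the list in which rises were most frequent. All lists were drawn up with earlier results of these data known, so its counts are a description. Of 24 measured members 15 rose and none fell, against 5.54% of all genes rising, and the median log2 fold change was 0.57 beside 0.02 for all genes tested. Without DHX34 replicate 3 the count was 16, and with the length trend removed 15. Members that rose included the receptor phosphatase PTPRC (CD45), at 43.4, 46.1 and 44.9 CPM in SCR and 84.7, 81.1 and 82.9 in the knockdown, and the tetraspanin CD53, at 20.6, 21.4 and 20.8 against 46.5, 46.8 and 43.5. The exchange factor VAV1 rose from 11.2 ± 0.73 to 22.3 ± 1.00 CPM. The kinases SYK and BTK, the lipid kinases PIK3CG and PIK3CD and the actin regulators RAC2 and LCP1 rose by 0.35 to 0.65 on the log2 scale. Together the list made up 0.0911% to 0.0931% of counts in SCR and 0.130% to 0.132% in the knockdown. In the direct comparison, 20 of its 24 members were lower in the UPF1 than in the DHX34 libraries, where 7.47% of all 17435 genes tested were lower and 9.89% higher. Members that did not pass in the comparison with SCR included LYN (log2 fold change -0.03) and IKZF1 (0.12).

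SPI1 encodes PU.1, the ETS-family transcription factor of myeloid and B cells. It was at 25, 23.5 and 23.8 CPM in SCR and at 53.9, 53 and 49.8 CPM in the knockdown, higher by 1.03 on the log2 scale with an SE of 0.06 (edgeR adjusted p 1.45e-06), and at 18.5 ± 1.67 CPM in the UPF1 libraries. The promoters of the leukocyte signalling genes were then searched for GAGGAAGT on either strand, letters that hold the GGAA core read by ETS factors. The search followed the gene results and covered the called genes and all lists of at least 10 matched members with 2 features, so it is a description. RefSeq promoters (GRCh38.p14, 250 bases before to 50 after the start) were matched by symbol for 21 of the 24 members, and 11 of these (52.4%) held the letters, against 3.54% of 11490 matched genes tested, 5.41% of the 721 matched genes that rose, 2.03% of 590 that fell outside the ribosomal proteins, and 2.59% of all 35116 promoters in the table. Of 11 leukocyte signalling genes with the letters 8 rose, and of 10 without them 5 rose. Across all genes with the letters the median log2 fold change was 0.02 (407 genes, of which 39 rose and 15 fell) beside 0.01 in the 11083 genes without them. Nothing about a factor's binding follows from such a match. The windows of 6 members that rose are shown because they place the letters beside the start of the genes described above, with the match in capitals (ACTTCCTC is the same match on the other strand):
INPP5D (chr2:233060269-233060296, + strand): tttctgtaatGAGGAAGTtctccgcagc
CD53 (chr1:110873060-110873087, + strand): actcagcctcACTTCCTCcttcttctca
VAV1 (chr19:6772687-6772714, + strand): aggcaaagaaGAGGAAGTggtagcacta
PIK3CG (chr7:106865277-106865304, + strand): taactgcaacACTTCCTCtgcatctgga
BTK (chrX:101390950-101390977, - strand): tcccgatcgcACTTCCTCatgggagtcg
SYK (chr9:90801727-90801754, + strand): gcgacactggGAGGAAGTgcgggccgcc
The match began 11 bases before the annotated start in VAV1, 63 in INPP5D, 78 in CD53, 82 in SYK, 171 in BTK and 192 in PIK3CG.

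Of 28 listed genes of mature granulocytes and monocytes 12 could be tested, 5 rose (3 without SCR replicate 3), 1 fell and the others were not called, with a median log2 fold change of 0.64. LYZ, the antibacterial enzyme lysozyme, went from 16.5 ± 0.26 to 34.0 ± 1.82 CPM. AIF1, a calcium-binding protein of macrophages, went from 2.57 ± 0.27 to 6.58 ± 0.46 CPM, and the lysosomal glycoprotein CD68 from 27.0 ± 1.00 to 45.2 ± 1.54 CPM. CD33 rose as well, by 0.36 on the log2 scale. PRTN3, a neutrophil protease, rose from a very low level (0.14 ± 0.08 to 0.90 ± 0.18 CPM). MS4A3 was the exception, a tetraspan protein of granulocyte precursors and basophils. It fell from 17.6 ± 1.34 to 7.71 ± 0.70 CPM, and in the UPF1 libraries it was at 44.7 ± 0.96 CPM, above SCR. Among lymphoid genes 3 of 12 tested rose, PRF1 (perforin), CD52 and SH2D2A, and none fell (1 rose without DHX34 replicate 1). Among mast cell and basophil genes PRG2, the eosinophil major basic protein, rose from 10.0 ± 0.66 to 23.6 ± 2.31 CPM, and of 8 tested 2 rose and 1 fell (1 and 1 with any single library left out).

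Platelet and megakaryocyte genes rose in part. Of 30 listed 17 could be tested, 9 rose and 1 fell, with a median log2 fold change of 0.65. The 8 largest of the rises were THBS1 and ITGA2B (above), ITGB3 (the beta chain of the same receptor, 0.49 ± 0.04 to 1.84 ± 0.17 CPM), PTGS1 (cyclooxygenase-1, 3.94 ± 0.55 to 8.70 ± 0.77 CPM), the ATP-gated channel P2RX1, the platelet receptor PEAR1 (9.0 ± 0.56 to 16.3 ± 1.98 CPM), the platelet tubulin TUBB1 and the homeobox factor MEIS1. GP1BB, part of the von Willebrand factor receptor, fell by 0.45 on the log2 scale, and GP9, PF4, PPBP and VWF were too low to test. Without single libraries 6 to 8 rose. MEIS1 did not pass once the length trend was removed (edgeR adjusted p 0.00632).

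Genes of the extracellular matrix and of the cytoskeleton were called in both directions. Of 28 matrix and adhesion genes tested 10 rose and 1 fell (median log2 fold change 0.43), with 4 rises on length-scaled counts, and 6 rises and no fall on log2 TPM. COL1A1, the main chain of type I collagen, rose from 0.67 ± 0.09 to 4.90 ± 0.49 CPM and the laminin chain LAMB2 by 0.69 on the log2 scale. FN1 (fibronectin) was the one that fell, from 29.7 ± 1.12 to 18.0 ± 0.96 CPM. Among fibroblast markers COL1A2 was at a mean of 1.62 TPM in SCR and 1.09 in the knockdown, and COL3A1, LUM and PDGFRB stayed below 0.1 TPM in all 6 libraries. Of 25 actin and SRF-linked genes 7 rose and 2 fell. The integrin linker TLN1 rose from 292 ± 14.1 to 484 ± 15.5 CPM and the filamin FLNA from 739 ± 49.7 to 1041 ± 44.1 CPM, whereas the intermediate filament VIM fell from 580 ± 15.7 to 433 ± 13.7 CPM. In the UPF1 libraries VIM was at 438 ± 29.5 and TLN1 at 289 ± 3.65 CPM.

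Erythroid genes fell in part. Of 30 tested 9 fell and none rose, against 4.86% of all genes falling, and the median log2 fold change was -0.14. EPB42, a membrane skeleton protein of red cells, fell from 5.58 ± 0.44 to 2.96 ± 0.20 CPM, the carbonic anhydrase CA1 from 13.9 ± 0.50 to 8.56 ± 0.77 CPM, and glycophorin B (GYPB) from 39.9 ± 2.12 to 27.6 ± 2.21 CPM. The alpha-globin gene HBA1 was at 2230, 2307 and 2275 CPM in SCR and at 1811, 1812 and 1801 CPM in the knockdown. Embryonic HBE1 went from 2179 ± 109 to 1785 ± 83.9 CPM. HBA1 and HBA2, and the glycophorin genes, are near-identical copies, so their division of reads is uncertain. Globins were lower still in the UPF1 libraries (HBA1 1299 ± 77.4 CPM, HBE1 1086 ± 69.5 CPM). Some erythroid markers had higher mean TPM in the knockdown and were not called by edgeR: HBZ (1766 to 2053 TPM), TFRC (182 to 220), AHSP (27.3 to 35.0) and EPOR (12.8 to 17.4). DESeq2 called 4 erythroid genes up and 13 down. With the length trend removed 11 erythroid genes fell and 1 rose, with a median of -0.08, and on log2 TPM 5 fell and 3 rose (limma), with a median of -0.01.

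Among 19 erythroid and megakaryocytic transcription factors tested 4 rose and 2 fell. Beside SPI1 and MEIS1 the cofactor ZFPM1 (49.9 ± 1.10 to 66.3 ± 1.77 CPM) and RUNX1 (53.2 ± 2.13 to 65.0 ± 2.65 CPM) rose. GATA2, the factor of stem and progenitor cells, was at 308, 309 and 300 CPM in SCR and 262, 264 and 258 in the knockdown, and LMO2, its bridging partner, went from 109 ± 1.07 to 96.5 ± 0.40 CPM. With any single library left out 2 rose, and on log2 TPM 3 rose and none fell. Of 39 genes linked to myeloid malignancy 7 rose and 5 fell. IDH2 rose from 73.6 ± 0.66 to 109 ± 5.75 CPM and the histone methyltransferase KMT2A from 75.6 ± 3.43 to 107 ± 13.7 CPM, and the splicing factor U2AF1 fell by 0.38 on the log2 scale. Several of the genes that rose in this list are long, and with the length trend removed 2 rose and 9 fell. Without single libraries 1 to 4 rose (1 without SCR replicate 1), and on log2 TPM 1 rose and none fell.

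IGF1, an insulin-like growth factor, was at 9.91, 10.4 and 9.79 CPM in SCR and at 1.93, 2.70 and 2.16 in the knockdown, a difference of -2.24 on the log2 scale with an SE of 0.13 (edgeR adjusted p 1.84e-06), and was at 12.5 ± 0.14 CPM in the UPF1 libraries. The difference was smaller on length-scaled counts (-1.21) and on log2 TPM (-0.89), and the fall was called on both. Of 21 JAK-STAT genes tested 5 fell and 1 rose. The 5 were the feedback inhibitors SOCS3 (66.0 ± 0.82 to 39.8 ± 3.20 CPM), SOCS1, SOCS2 and CISH and the target ID1, and the kinase TYK2 rose by 0.29 on the log2 scale. In the UPF1 libraries SOCS3 was at 42.3 ± 2.66 CPM, and the direct test of the knockdowns gave an edgeR adjusted p of 0.39.

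Other named falls were ALDH1A1, which makes retinoic acid (26 ± 1.77 to 14.8 ± 0.56 CPM), the receptor phosphatase PTPRR, the lymphocyte activation antigen CD69, VWA5A, CFAP161, the receptor tyrosine kinase homologue EPHB6 and the noncoding LINC01033. DHX37, another DEAH-box helicase, needed for ribosome assembly, was at 54.8, 78.7 and 92.9 CPM in SCR and at 29.5, 13.9 and 40.2 CPM in the knockdown. SPAST, a microtubule-severing enzyme, was at 17.9, 20.3 and 16.3 against 9.14, 7.22 and 14.4 CPM. Both varied widely among the replicates, and that their groups did not overlap was a condition for being named. DHX37 was no longer called without DHX34 replicate 1 or any 1 of the SCR replicates. SPAST was not called in 5 of the 6 fits with 1 library omitted (all but that without DHX34 replicate 3), with DESeq2 or with the replicate block, and neither gene was called on length-scaled counts or log2 TPM. CD69 was not called without DHX34 replicate 2, SCR replicate 1 or SCR replicate 3. With UPF1 siRNA DHX37 was at 33.7 ± 6.46 and SPAST at 10.8 ± 1.51 CPM.

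**Figure D3:**
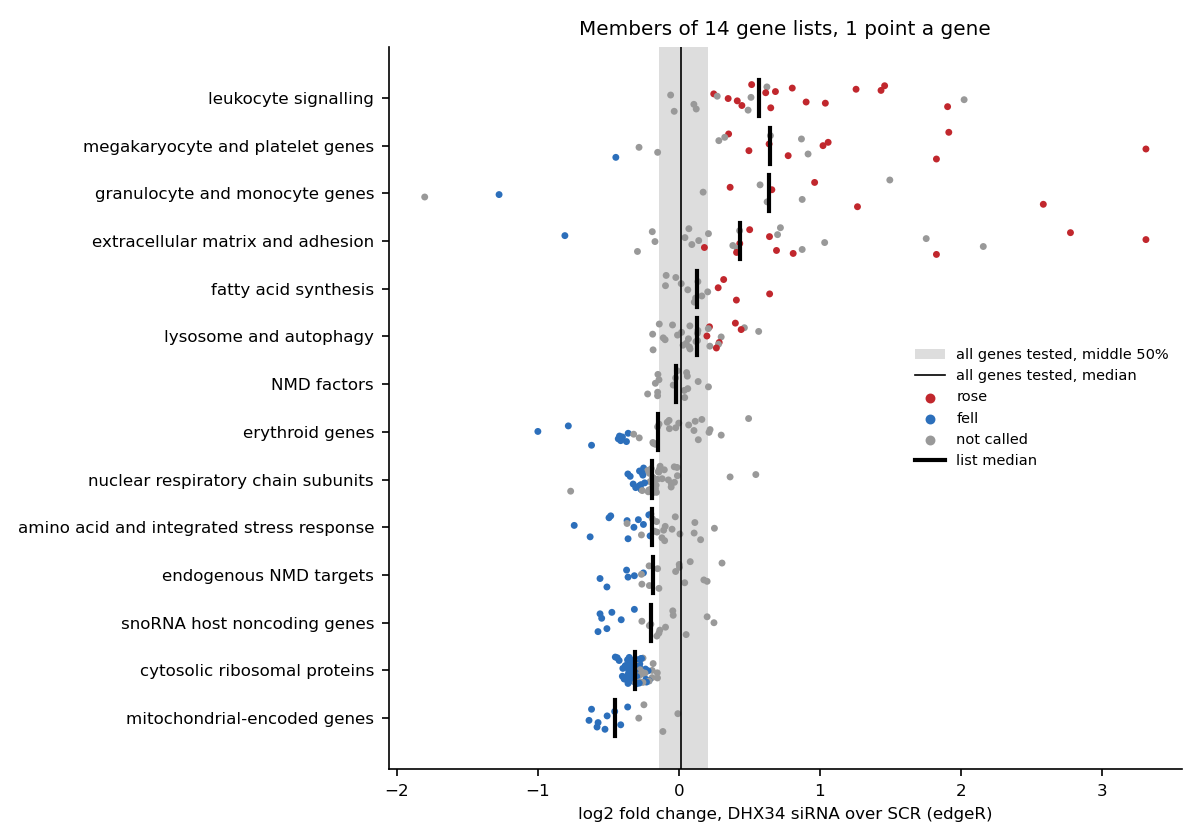
Log2 fold change of each tested member of 14 gene lists, DHX34 siRNA over SCR, coloured by whether it rose, fell or was not called, with a bar at the list median, the median of all genes tested (0.02) as a line and their middle 50% shaded. Leukocyte and platelet lists spread to the right with medians of 0.57 and 0.65, while ribosomal protein genes form a tight cluster around -0.31.

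Of 16 NMD factors none was called in either direction by edgeR at an adjusted p of at most 0.005 (1 fell without DHX34 replicate 3, and none on log2 TPM). UPF1 was at 251 ± 8.89 CPM in SCR and 264 ± 6.71 in the knockdown (log2 fold change -0.01), with SMG1 at 99.1 ± 5.46 and 122 ± 14.8 CPM (edgeR adjusted p 0.03 over all genes). Fold changes use TMM totals, and the log2 ratio of CPM exceeded them by 0.08 in the median of 10020 genes. In the exon junction complex 3 of 10 genes fell (ALYREF, RBM8A and MAGOH), 1 without SCR replicate 1 and none with the length trend removed. Of 15 PIKK kinases and their assembly factors none was called.

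Genes known as NMD targets were called only downward. Of 20 tested none rose and 6 fell (3 without SCR replicate 1), against 4.86% of all genes falling, with a median log2 fold change of -0.18. In the direct comparison 16 of the 20 were higher in the UPF1 than in the DHX34 libraries, against 9.89% of all genes tested. GAS5, a noncoding RNA whose introns hold small nucleolar RNAs, is one of the 20. It was at 284, 285 and 273 CPM in SCR, at 210, 207 and 209 with DHX34 siRNA, and at 814 ± 44 CPM with UPF1 siRNA. ATF4, the transcription factor of the amino acid response, was at 357 ± 9.53 CPM in SCR, 318 ± 4.18 with DHX34 siRNA and 585 ± 1.8 with UPF1 siRNA. On log2 TPM 2 of the 20 fell, with a median of -0.04, and none of the 20 rose under the alternatives run.

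Of 19 noncoding hosts of small nucleolar RNAs 7 fell and none rose (median log2 fold change -0.20), against 4.86% of all genes falling. In the direct comparison 14 were higher in the UPF1 than in the DHX34 libraries, against 9.89% of all genes tested. This list overlaps that of the NMD targets (ZFAS1 is in both), so their counts are not separate results. SNHG5 was at 445, 432 and 448 CPM in SCR and 322, 330 and 309 CPM in the knockdown. SNHG6 went from 80.1 ± 3.02 to 57.1 ± 0.52 CPM, SNHG29 from 806 ± 25.3 to 614 ± 33.1 and SNHG32 from 281 ± 8.85 to 224 ± 5.55 CPM. These hosts were named for their falls, so that the groups did not overlap in any of them says nothing about the other hosts.

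Ribosomal protein genes fell together by a small, even amount. Of 79 tested 61 fell and none rose, all 79 had a negative log2 fold change, from -0.45 to -0.15, and the median was -0.31. RPS20 was at 858, 827 and 889 CPM in SCR and at 667, 684 and 645 CPM in the knockdown, and RPL31 at 689, 639 and 671 against 537, 519 and 509 CPM. As a group they took 10.0% to 10.5% of the counts of SCR libraries and 8.39% to 9.08% of those of knockdown libraries. In the UPF1 libraries they took 8.79% to 8.86%, and in the direct comparison of the knockdowns 3 of 79 were higher and 1 lower with UPF1 siRNA. Their genes are short, with a median length of 660 bases, and with the length trend removed 32 fell, with a median of -0.21. On log2 TPM 11 fell (limma), with a median of -0.15. The count also depended on the libraries: 25 and 29 fell without SCR replicates 1 and 3, 35 without DHX34 replicate 1, and 68 without DHX34 replicate 3.

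Ribosomal protein genes and small nucleolar RNA hosts are known to share a run of pyrimidines at the start of their RNA. In the RefSeq promoters an unbroken stretch of at least 6 pyrimidines read from a base within 5 bases of the annotated start, which may also extend further upstream, was present in 87.3% of 63 matched ribosomal protein genes and 70.6% of 17 matched noncoding hosts. It was present in 24.4% of the 590 matched genes that fell outside the ribosomal proteins, in 22.6% of the 721 that rose, in 19.9% of 11490 matched genes tested and in 14.9% of all promoters in the table. Outside the ribosomal proteins, genes with and without such a run had the same median log2 fold change (0.01 in 2228 and in 9199 genes). Starts of 5 ribosomal protein genes and 3 hosts that fell are shown for the shared feature, with the run in capitals:
RPL31 (chr2:101002279-101002304, + strand): ccttcgcgCTCTTCCTTTCCaacttg
RPL28 (chr19:55385919-55385945, + strand): gcccctcgCCTTCCTCTTTCCgtctca
RPL38 (chr17:74203668-74203690, + strand): aagtctcgTTCTTTTTCgtcctt
RPL11 (chr1:23691794-23691819, + strand): aagctccgCTTTCTCTTCCTgctctc
RPLP1 (chr15:69452810-69452834, + strand): cgcgagagCCCCTTTCCTCagctgc
ZFAS1 (chr20:49278632-49278652, + strand): gccattcgTTCTTTCgcgtct
SNHG5 (chr6:85678723-85678742, - strand): cacttcggTCTTTTacgtcg
SNHG32 (chr6:31834906-31834927, + strand): cattttagTTCTTTTTgcgaag
The log2 fold changes of these 8 genes ran from -0.56 for ZFAS1 to -0.38 for RPLP1.

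Genes encoded in the mitochondrial genome had a lower median. Of 13 tested 9 fell and none rose (median log2 fold change -0.45), among them MT-ND4 (2676 ± 27.0 to 1828 ± 282 CPM), MT-CO1 (5999 ± 184 to 4476 ± 466 CPM) and MT-CYB. The knockdown libraries differed among themselves: MT-ND4 was at 1744, 1597 and 2143 CPM in replicates 1 to 3, all below the lowest SCR library at 2658. On log2 TPM none of the 13 passed (0 called by limma), with a median of -0.31. Without DHX34 replicate 3, 12 fell, without DHX34 replicates 1 and 2, 3 and 5 fell, and without SCR replicate 1, 2 or 3, 3 fell each time. Their share of counts, 2.15% to 2.27% in SCR, was 1.49% to 1.91% in the DHX34 and 1.59% to 1.71% in the UPF1 libraries, and the direct test called none of the 13 (edgeR). As a share of TPM they made up 6.37%, 6.78% and 6.93% in SCR and 5.46%, 5.17% and 6.92% in the knockdown, which overlapped (exact two-sided permutation p 0.30). Nuclear genes for respiratory chain subunits fell too: 13 of 46, with none rising and a median of -0.19. NDUFA1 of complex I went from 96.5 ± 4.86 to 79.7 ± 1.10 CPM and COX4I1 of complex IV from 512 ± 19.9 to 427 ± 15.6 CPM. With the length trend removed 7 of the 46 fell, without SCR replicates 1 and 3 and DHX34 replicate 1, 7, 6 and 8 fell, and on log2 TPM none was called.

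Of 37 translation factors 8 fell and none rose (2 fell without SCR replicate 1, and on log2 TPM 1 rose and 1 fell, with a median of 0.01). Of 30 ribosome biogenesis genes 8 fell and 1 rose (3 fell without DHX34 replicate 1, and on log2 TPM 1 rose and none fell, with a median of 0.07). EIF5A and EEF1D fell by 0.29 and 0.31 on the log2 scale and the nucleolar chaperone NPM1 by 0.33, and WDR36 rose from 16.6 ± 2.00 to 30.5 ± 1.75 CPM. In the amino acid and integrated stress response 11 of 29 fell and none rose, with a median log2 fold change of -0.19 (4 fell without SCR replicate 1, and on log2 TPM 2 fell, with a median of -0.01). DDIT4, an inhibitor of mTORC1, went from 262 ± 2.91 to 179 ± 19.7 CPM, the serine synthesis enzyme PHGDH from 63.5 ± 2.02 to 47.8 ± 0.66 and asparagine synthetase ASNS from 365 ± 4.98 to 277 ± 13.2 CPM. All 3 were above SCR in the UPF1 libraries (DDIT4 at 513 ± 17.9 CPM), and 24 of the 29 were higher in the UPF1 than in the DHX34 libraries.

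A few metabolic and lysosomal genes rose, and the counts here can be read beside the 5.54% and 4.86% of all genes that rose and fell. FADS1, a desaturase of polyunsaturated fatty acids, was at 630, 615 and 617 CPM in SCR and 1032, 1039 and 1012 CPM in the knockdown, and 4 of 14 fatty acid genes rose with none falling. Of 30 lysosomal and autophagy genes 6 rose and none fell, among them the protease CTSZ (108 ± 0.55 to 156 ± 2.77 CPM), the membrane protein LAMP2 and the saposin precursor PSAP (3 rose without DHX34 replicate 1 and 8 without DHX34 replicate 3). In the unfolded protein response 4 of 22 rose and none fell, and of 24 cholesterol genes 2 rose (1 and 0 without DHX34 replicate 1). The 2 cholesterol genes are 8.33% of that list, close to the share of all genes. With the length trend removed 1 gene rose in each of these lists. Of 18 p53 targets 3 rose, the cell-cycle inhibitor CDKN1A (4.76 ± 0.35 to 8.44 ± 0.44 CPM), FDXR and TNFRSF10B. Of 19 interferon and double-stranded RNA response genes 3 rose (STAT2, ADAR and BST2), and none fell (1 rose without SCR replicate 3). Of 10 polyamine genes 4 fell and 1 rose, with ODC1, which makes putrescine, among those that fell (on log2 TPM none fell and 1 rose).

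Called in both directions were hypoxia and glycolysis (3 rose and 2 fell of 27), TGF-beta targets (2 and 3 of 17), heme and iron (2 and 3 of 23), heat shock (1 and 2 of 15), general mRNA decay (3 and 2 of 32), mitosis (1 and 2 of 25), INO80-type chromatin remodellers (2 and 1 of 23), immediate early genes (1 and 1 of 23) and the CLK and SRPK kinases (1 and 1 of 6). DNA replication genes (0 and 2 of 30), BCL2 family genes (0 and 1 of 15), selenoproteins (0 and 3 of 19) cancer-testis genes (1 and 6 of 24) and replication-dependent histones (2 and 0 of 33) are given in the same order, rises before falls, and can be read beside the 5.54% and 4.86% of all genes that rose and fell. Among splicing factors, of 32 late spliceosome genes 1 rose and 2 fell (PRPF8 by 0.20 upward, CWC15 and BUD31 by 0.33 each downward on the log2 scale), and of 31 SR and hnRNP proteins 6 fell (1 without DHX34 replicate 1, 10 without DHX34 replicate 3 and none on log2 TPM). Of 17 DEAH-box helicases 3 fell: DHX34, DHX37 and DHX33. Without SCR replicate 3 only 1 of the 17 fell, and on log2 TPM 1 rose and 1 fell.

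Fold changes drifted with gene length across the whole table. In 10 equal groups of the genes ordered by length, the median log2 fold change went from -0.09 in the first (median 591 bases) and -0.10 in the second to 0.14 in the last (median 6068 bases). Spearman's rho over the 17004 genes was 0.22, a description over genes that share the same 6 libraries. Genes that rose had a median length of 3258 bases and genes that fell 1322 bases, beside 2078 for all tested. The mean fragment length was 255 bases in each SCR library and 259 to 260 in the knockdown libraries, and its part in the drift was not tested. With the trend removed the leukocyte and platelet lists had medians of 0.52 and 0.71, and the ribosomal, respiratory and snoRNA host lists -0.21, -0.10 and -0.12.

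**Figure D4:**
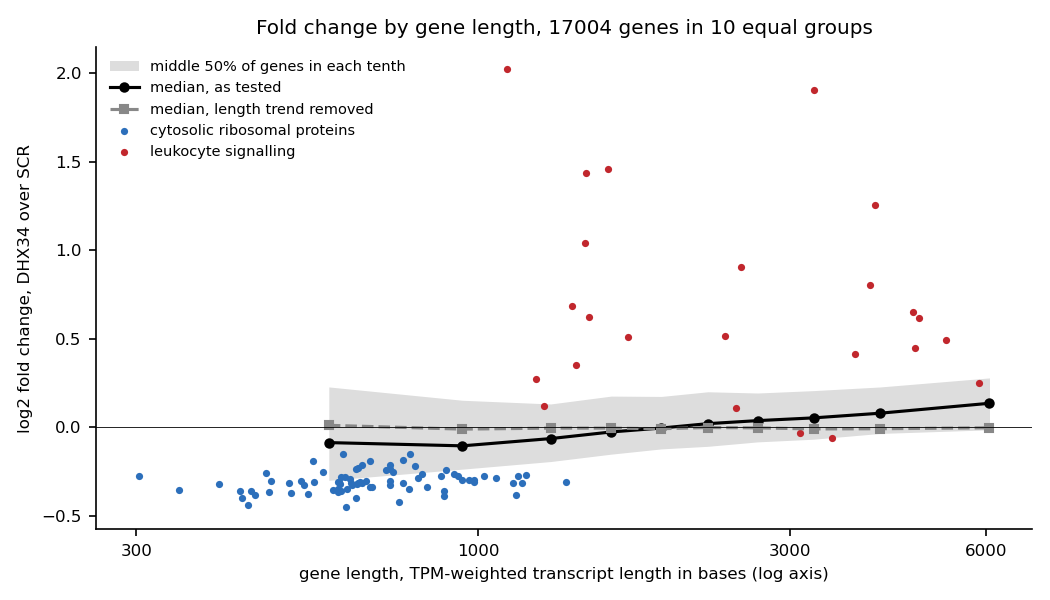
Log2 fold change (DHX34 siRNA over SCR) against gene length on a log axis, with the median of each of 10 equal groups of 17004 genes as tested and with the length trend removed, the middle 50% shaded, and members of 2 lists as points. The ribosomal protein genes lie below the trend at their length and the leukocyte signalling genes mostly above it, with 2 of 24 below 0.

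Isoform usage was read as the share of each transcript in the TPM of its gene. Among 33252 transcripts of 9230 genes with at least 1 TPM, 111 transcripts (0.334%) in 99 genes (1.07%) changed by at least 10 percentage points at a limma adjusted p of at most 0.05, 60 gaining and 51 losing. Of these, 73 were listed at 0 in a whole group (44 in SCR and 29 in the knockdown), which in salmon's estimates can be a reassignment of reads between overlapping transcripts, so such a 0 is not taken as absence. Coding transcripts gained in 33 cases and lost in 20 of 21208 tested, and retained-intron transcripts gained in 12 and lost in 16 of 3707. NMD substrates gained in 4 and lost in 5 of 2523. Transcripts of coding genes without a defined coding sequence gained in 9 and lost in 8 of 3346. The genes were long, with a median of 3950 bases beside 2125 for genes tested, and in 49 of them the transcript that gained most was longer than the one that lost most, in 50 shorter. The level of the gene also changed in 26 of the 99 (26.3%), against 13.6% of 9227 genes tested both ways.

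In several long genes a long coding transcript gained. UBR4, a giant ubiquitin ligase, had 23.5%, 32.3% and 25% of its TPM in the coding transcript UBR4-204 in SCR and 52.8%, 58.3% and 58.0% in the knockdown (limma adjusted p 0.043), and UBR4-202, which has 21 exons in place of 106, went from 48.8% to 31.0% and was not called. The call of UBR4-204 was lost in 5 of the 6 fits with 1 library omitted (all but that without SCR replicate 2), on the log2 ratio to the rest of the gene, with shares of at least 1%, with the replicate block and on shares of expected counts, where the difference was 17.1 points in place of 29.4. PRKDC, the DNA repair kinase, had 56.0% ± 2.42 of its TPM in the coding transcript PRKDC-201 in SCR and 81.5% ± 3.28 in the knockdown (SD, n = 3), and PRKDC-207, a retained-intron transcript of 834 bases, went from 42.4% to 17%. RNF213-204 (17730 bases) went from 17.6% ± 2.29 to 44.3% ± 3.59, and HSPG2-211, a retained-intron transcript of the basement membrane gene perlecan, from 37.4% ± 4.35 to 12.5% ± 2.05. With a library left out, the calls of PRKDC-201, PRKDC-207 and RNF213-204 were lost in 5 of 6 fits and that of HSPG2-211 in 6 of 6. The coding transcript also gained in NUP205, a nuclear pore subunit, and in SNRNP200, the U5 helicase of the spliceosome, whose retained-intron transcript SNRNP200-208 went from 26.5% to 6.68%. NUP205 and SNRNP200 lie outside the 12 genes of the naming rule, and how their calls held with a library left out is not given. Long coding transcripts lost share in other genes, among them GATAD2B-201 (7478 bases, 94.4% to 69.9%) and DDX6-207 (6152 bases, 81.0% to 62.9%).

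Other named pairs differed in their start, their end or a coding stretch. KIF14, a mitotic kinesin, has transcripts KIF14-201 and KIF14-202 with the same coding exons and different first exons. KIF14-202 held 32.9%, 32.0% and 42.4% in SCR and was listed at 0 in all 3 knockdown libraries (limma adjusted p 0.0052). PKNOX1-202, a retained-intron transcript of a homeobox gene, went from 34.3%, 32.9% and 40.2% to a listed 0. So did IFT57-202, a retained-intron transcript of a cilium gene, from 25.4% ± 6.02. CDIN1-219 (29.1% ± 6.83 in the knockdown) and FAM185A-203 (26.6% ± 10.3) were listed at 0 in SCR. NPIPB12-201, an NMD substrate, was too, at 40.6% ± 9.11 in the knockdown, but the NPIP genes are near-identical copies and the value is uncertain. With a library left out, the call of FAM185A-203 was lost in 4 of 6 fits, that of IFT57-202 in 3, and those of CDIN1-219 and NPIPB12-201 in 2.

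MGA encodes a repressor partner of MAX. No pair differed by a coding cassette exon of at most 300 bases, and the stretch described here was picked after the values were seen. The transcript MGA-210, which held 25.2%, 29.7% and 28.2% of the gene in SCR and was listed at 0 in the knockdown, starts 1 of its coding exons 147 bases earlier than MGA-201, which had 4.31%, 12.7% and 0% in SCR and 51.0%, 30.2% and 34.5% in the knockdown and was not called. The extra bases (chr15:41739906-41740052, + strand, GRCh38) keep the reading frame and are shown in capitals because they are one of the differences between both forms:
MGA: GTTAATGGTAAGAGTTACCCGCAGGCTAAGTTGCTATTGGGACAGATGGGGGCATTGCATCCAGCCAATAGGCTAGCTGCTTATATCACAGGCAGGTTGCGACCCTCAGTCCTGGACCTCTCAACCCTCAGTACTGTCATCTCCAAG
Summed over the 3 transcripts with the stretch and the 2 without, its inclusion was 87.9%, 78.0% and 89.2% in SCR, 41%, 61.6% and 58.2% in the knockdown and 62.3% to 70.3% in the UPF1 libraries. The groups did not overlap, and the exact two-sided permutation p of 0.10 is the smallest that 3 libraries against 3 allow. MGA-201 and MGA-210 both differ in length between the authors' annotation and the one that gave the stretch. The inclusion values are therefore uncertain.

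**Figure D5:**
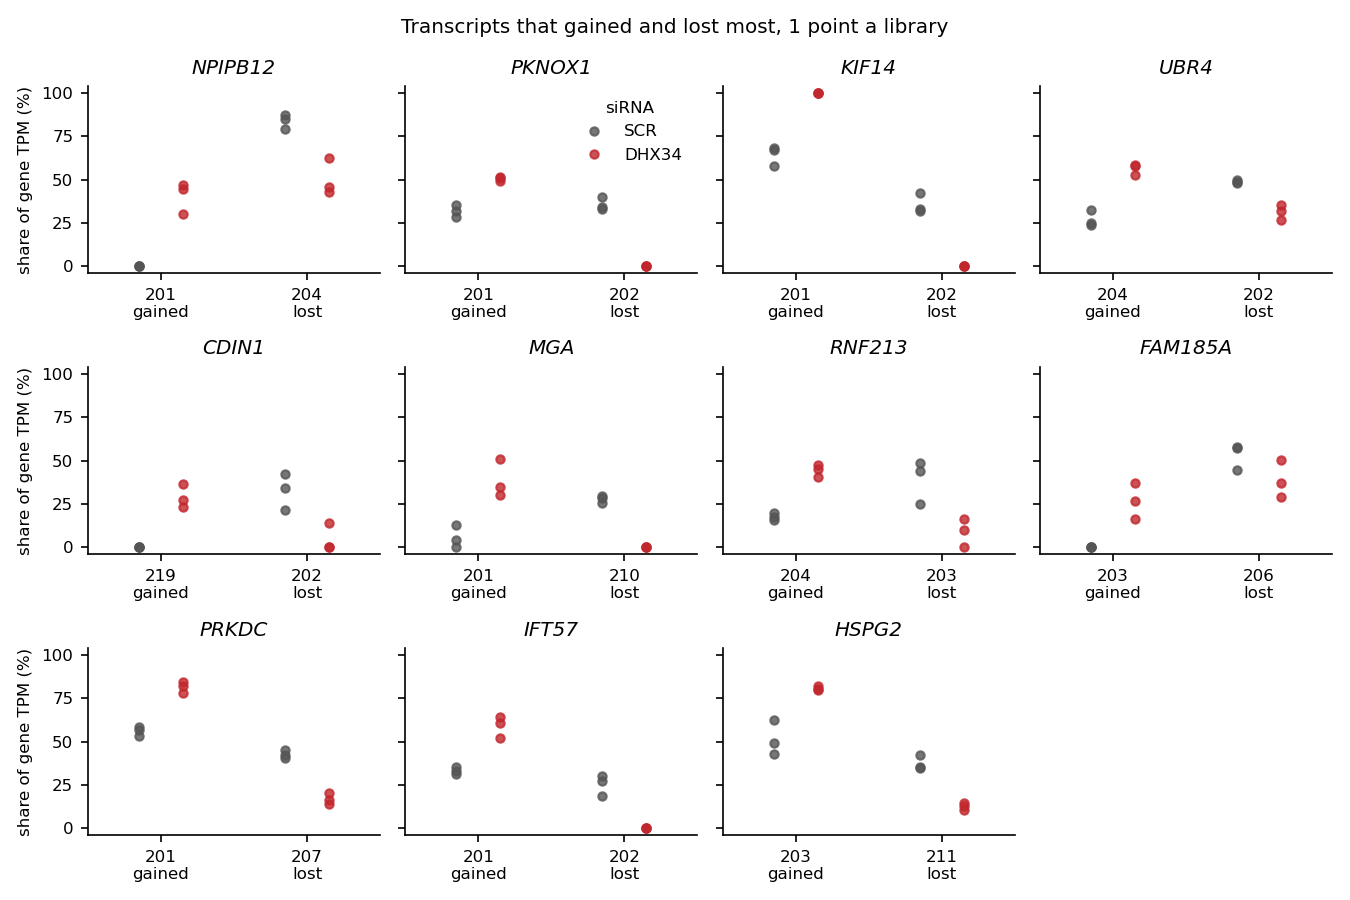
Share of gene TPM in percent of the transcript that gained most and the one that lost most in each of the genes named above, with 1 point per library. In KIF14, PKNOX1, MGA and IFT57 the transcript that lost is at 0 in all 3 knockdown libraries, and in UBR4, PRKDC and RNF213 the longer coding transcript gained.

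Summed over all genes, classes of transcripts shifted by fractions of a percent. Retained-intron transcripts made up 4.19% to 4.37% of TPM in SCR and 4.40% to 4.78% in the knockdown, NMD substrates 2.24% to 2.30% against 2.31% to 2.38%, and other processed transcripts 3.02% to 3.10% against 3.20% to 3.29%. These 3 of 7 classes did not overlap between the groups (exact permutation p 0.10, the smallest possible, 0.23 after Benjamini-Hochberg adjustment over the 7). On shares of expected counts the difference was 0.005 points for NMD substrates and 0.11 for retained-intron transcripts (exact permutation p 0.90 and 0.60). Both overlapped there, and of these classes only other processed transcripts stayed apart. Coding transcripts were at 78.1% ± 0.21 in SCR and 77.3% ± 0.99 in the knockdown and overlapped. For NMD substrates the difference of 0.07 points can be set beside the UPF1 libraries, where they made up 3.06% to 3.10%.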

How the data were processed

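The deposited file of each library is a salmon table, and the authors aligned reads to Ensembl 93 cDNA on GRCh38 with salmon 1.5.2 to give an expected count (rounded after summing per gene) and a TPM per transcript. The authors' deposited tables of their own gene and splicing tests were not used. Transcripts were joined by identifier to GENCODE 44, which matched 97.9% of 203027 transcripts and about 98.1% of counts, and lengths were equal for 85.8% of those matched. Genes were tested with edgeR QL fits (TMM, filterByExpr with a minimum count of 10) on 6 libraries per comparison, with calls at 0.005 or below after Benjamini-Hochberg adjustment. Transcript shares of gene TPM were tested with limma (arcsine square root, genes of at least 1 TPM, shares of at least 5%). Single values had exact two-sided permutation tests. Named genes were called genes with a symbol, at least 5 CPM and groups apart: the 15 largest rises and falls, and up to 4 called members per list. Further list members were named after their values were seen. Isoform pairs came from the 12 genes of at least 5 TPM with the largest share change. The 46 lists, the rules and the comparison itself were chosen with earlier results of these data known. Some genes and transcripts that these rules and lists take in are left out of the text. The labels do not say whether replicates are separate cultures, although the methods call them biological, so p-values measure the spread between these samples. The fits were tested on simulated data. Alternatives were DESeq2, other scalings, filters and thresholds, length and GC corrections, a replicate block and leaving out each library.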

Additional observations from a re-analysis of the deposited data

How the results depend on the processing

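The number of genes called in the knockdown, 1768, was 2961 with DESeq2, 4403 at an adjusted p of at most 0.05, 3396 without the filter on low counts, 770 on length-scaled counts and 879 with limma on log2 TPM, and 781 to 1785 when single libraries were left out (lowest without SCR replicate 3). For UPF1 against DHX34 libraries, 3026 genes became 5691 at 0.05 and 1915 to 3865 without single libraries. The 111 transcript shares became 16 at an adjusted p of at most 0.005 and 44 on shares of expected counts, and ranged from 82 to 119 without single libraries, of which 37 to 59 were among the 111. The test of diffSpliceDGE called 374 genes in place of 99, 69 of them shared. Classes of transcripts that did not overlap numbered 3, and 3 to 5 without single libraries. On shares of expected counts NMD substrates and retained-intron transcripts overlapped, while lncRNA and mitochondrial-encoded transcripts did not. No named gene or transcript changed sign, but calls were lost. For the genes named as the largest rises and falls, this was so in 36 refits (457 stayed on the same side of the threshold). For the called list members that the naming rule takes in, calls were lost in 517 refits and 1727 stayed. For named transcripts, calls were lost in 83 refits, 241 stayed on the same side of the thresholds and 9 passed only in the refit. The 241 include transcripts that were called in neither fit. With the replicate block, for example, 14 calls were lost and the 10 that stayed were uncalled in both.

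The correlation of same-numbered deviations between SCR and DHX34 libraries was 0.00, -0.14 and -0.23. With 3 libraries a group this cannot show whether same-numbered samples were handled together, and the labels do not say. With the replicate block 1007 genes were called, 570 with the length trend removed as well, 5 classes of transcripts moved in 1 direction in all 3 number pairs (smallest p 0.25), and limma called 0 transcript shares, with 3247 at an unadjusted p under 0.05. The cause was not tested. In the block with the length trend removed 0 ribosomal protein genes passed by edgeR, with a median log2 fold change of -0.21.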
